A study of Mus musculus with 18 samples.

Results

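The miR-23/27/24 miRNAs are made from a pair of paralogous hairpin clusters, and 7 of their mature products were followed here in mouse adrenal glands and neuroblastomas. The members were the rows named mmu-miR-23a-3p, mmu-miR-27a-3p, mmu-miR-24-2-5p, mmu-miR-23b-3p, mmu-miR-27b-3p, mmu-miR-24-1-5p and mmu-miR-24-3p, that is 7 of 1966 miRNAs in the table, and all 7 passed the filter on low values that 726 miRNAs passed. Small RNA was sequenced from 3 wildtype adrenal glands (AG), which carried no Cre (genotype CRE -), 7 tumors of R26 IGF2BP1 mice (TI) and 8 tumors of R26 IGF2BP1/MYCN mice (TIM). In both tumor models a Cre under control of the Dbh promoter, which is active in cells of the sympathoadrenal lineage, removed a stop cassette in front of transgenes placed in the Rosa26 locus. IGF2BP1 (IMP1 in the labels), an RNA-binding protein, was thus expressed in TI, and IGF2BP1 together with MYCN, a transcription factor, in TIM. The IGF2BP1 transgene was built without its 3′UTR, the part of the mRNA that miRNAs mostly bind. The labels give 6 TI samples as IGF2BP1 +/+, CRE + and 1 as IGF2BP1 +/-, CRE +, all 8 TIM samples as IMP1/MYCN, CRE +, and the site as tumor adrenal gland for 1 TI and 2 TIM samples, as tumor spine for 1 TIM sample and as tumor for the rest. The columns of the table name only the group, so these details and the animals cannot be tied to single libraries, and a library number is the order of its column within a group.

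MiRNA genes that lie side by side are often transcribed as a single primary transcript, from which each hairpin is cut out. Either the 5p or the 3p arm of a hairpin usually accumulates in Argonaute proteins, and its seed, bases 2 to 8, guides the choice of target mRNAs. The miR-23a/27a/24-2 and miR-23b/27b/24-1 clusters are known from blood vessels, muscle, fat and immune cells, and are expressed in many other tissues. Cluster a (Mir23a, Mir27a and Mir24-2) spans chr8:84208518-84208921 on the plus strand of GRCm38, the build called mm10 in the submitters' processing notes. The RefSeq table of that build places no other gene than the antisense hairpin Mir3074-2 over these 404 bases, and Zswim4 begins 2020 bases further on. In the GENCODE vM39 annotation of the later build GRCm39, an exon of the lncRNA Gm26532 overlaps the Mir24-2 hairpin. Cluster b (Mir23b, Mir27b and Mir24-1) spans chr13:63300484-63301275, also on the plus strand, and lies within Aopep, the gene of an aminopeptidase, with the antisense hairpin Mir3074-1 over Mir24-1. In GENCODE vM39 all 3 hairpins of cluster b are intronic in the 4 protein-coding Aopep transcripts that span them, while Mir27b overlaps an exon of 1 further Aopep transcript and Mir24-1 exons of 4. Each of these hairpins also lies in an intron of 1 protein-coding transcript of Fancc, on the opposite strand.

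The sequences are shown because they decide which reads can be assigned to which cluster. RefSeq (GRCm38.p6) held a mature sequence for 6 of the 7 members, printed 5′ to 3′ with the seed in capitals.
mmu-miR-23a-3p: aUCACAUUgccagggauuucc
mmu-miR-27a-3p: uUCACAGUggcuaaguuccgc
mmu-miR-27b-3p: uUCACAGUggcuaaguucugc
mmu-miR-24-2-5p: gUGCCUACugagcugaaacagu
mmu-miR-24-1-5p: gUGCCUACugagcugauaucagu
mmu-miR-24-3p: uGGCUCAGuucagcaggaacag
The pair miR-27a-3p and miR-27b-3p shared the seed UCACAGU and differed by the single substitution C19U, counted from 1 at the 5′ end with the base of miR-27a-3p first. The seed of miR-23a-3p differed from that of the miR-27 pair by U7G. The miR-24 5p arms shared the seed UGCCUAC and their first 16 bases, and differed after that, so that they mark which hairpin was cut. The mature miR-24-3p is the same at both loci, and its reads cannot be divided between cluster a and cluster b. How reads that map to several places were treated is not given in the sources used here, and reads of miR-27a-3p and miR-27b-3p that end before base 19 cannot be told apart. The member without a sequence was miR-23b-3p, so how far reads of miR-23a-3p and miR-23b-3p can be told apart was not examined.

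Of the 18 libraries, those of AG held 21644743 to 23332704 reads on miRNAs, those of TI 11802837 to 21268124 and those of TIM 11641696 to 23435621. Levels are given as deposited, in CPM, which are reads relative to the library total, scaled by TMM (trimmed mean of M values). A single miRNA, miR-148a-3p, took 4.19% to 6.94% of the reads in AG, 2.29% to 61.9% in TI and 6.53% to 44.2% in TIM. The TMM factors were 0.927 to 0.991 in AG, 0.700 to 0.934 in TI and 0.802 to 1.85 in TIM, a wider range in both tumor groups. The model was limma, fitted to log2(CPM + 1) of all 726 miRNAs, and "rose" or "fell" is used only for a Benjamini-Hochberg adjusted p under 0.05. The study reported as many tumors as tumor-bearing animals in the IGF2BP1 model, but more tumors than animals in the IGF2BP1/MYCN model. Some TIM libraries may therefore share an animal, and the labels do not say which. The p-values thus measure the spread between these libraries.

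The cluster a products fell in both tumor models, while those of cluster b did not pass the test. In TI against AG, 4 of the 7 members fell and 0 rose, where 29.3% of the 726 miRNAs fell and 26.4% rose. In TIM against AG, 3 of the 7 fell and 0 rose, where 25.9% of all tested miRNAs fell and 25.5% rose. All 3 members made only from cluster a fell in both comparisons, and 0 of the 3 made only from cluster b passed the test in either. Over the 7 members the median log2 fold change was -1.47 in TI and -1.13 in TIM, beside -0.01 and 0.18 over all tested miRNAs. Both comparisons share the 3 AG libraries. The difference between the clusters itself was tested with the paralog ratios, which did not pass after adjustment (exact permutation, adjusted p = 0.0643). Each of them had the smallest p that these numbers of libraries allow (exact permutation, 0.0167 in TI and 0.0121 in TIM). The adjusted value could pass only if more of the 27 ratio tests had reached that limit, so this result does not decide the question.

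**Figure D1:**
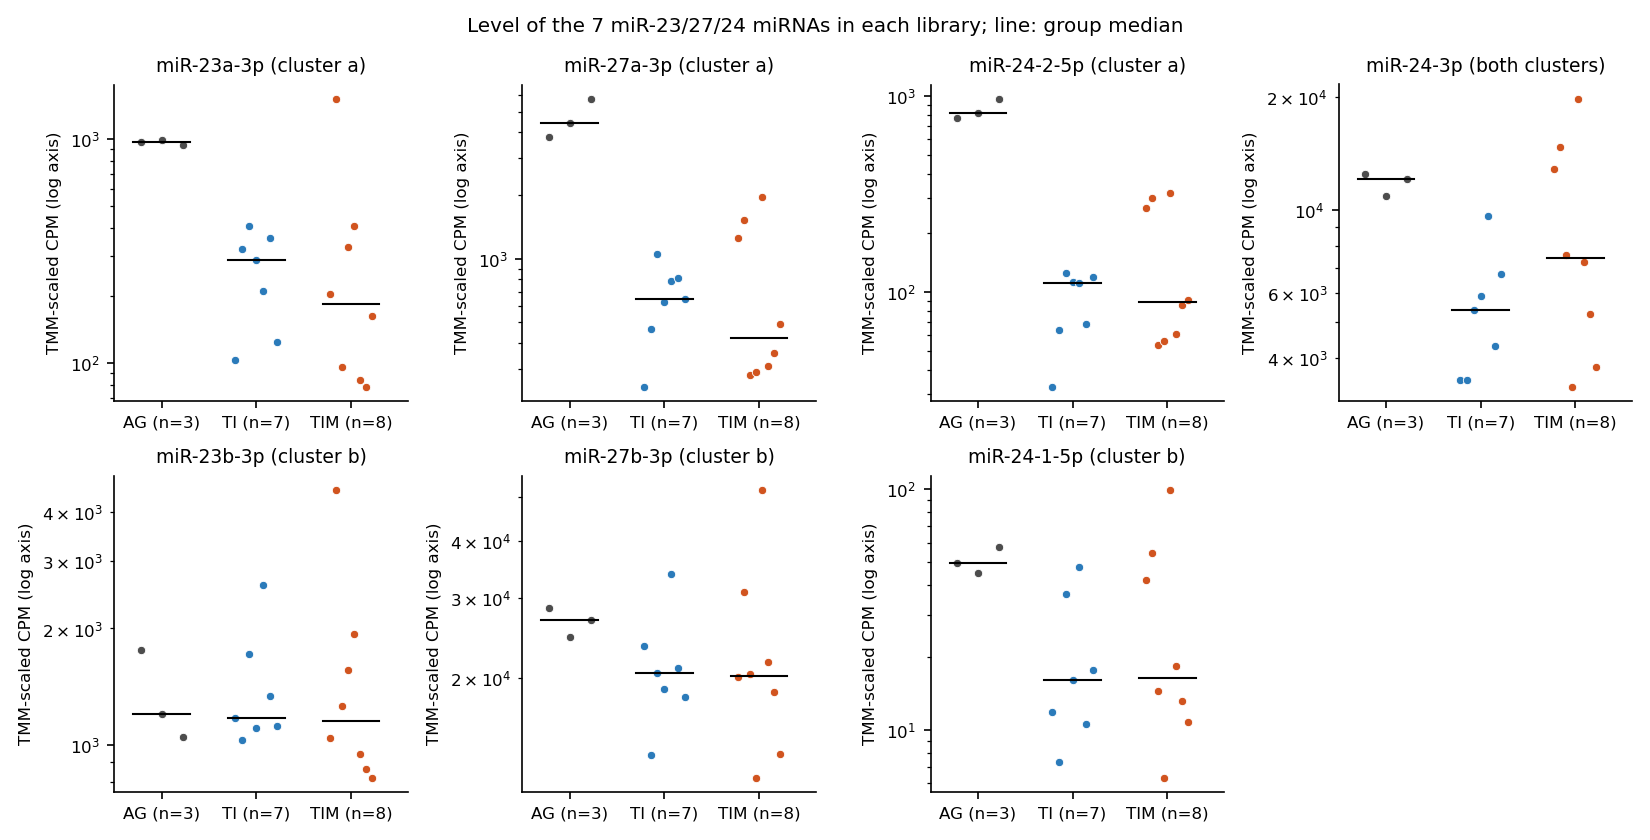
TMM-scaled CPM (log axis) of the 7 members in each library of AG (n = 3), TI (n = 7) and TIM (n = 8), 1 point per library, with the group median as a line. For miR-27a-3p and miR-24-2-5p every tumor library lies below every AG library, and for miR-23b-3p the 3 groups overlap.

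Of the cluster a products, miR-27a-3p was the most abundant. Its level was 3796, 4408 and 5743 CPM in the 3 AG libraries. In TI it ranged from 248 over a median of 648 to 1054 CPM, and in TIM from 281 over a median of 424 to 1972 CPM. All 15 tumor libraries thus lay below the lowest AG library, and the highest TIM library, number 5, still had less than 3796 CPM. The log2 fold change was -2.91 ± 0.60 (SE) in TI, a 7.50-fold lower level (limma, adjusted p = 0.00056), and -2.93 ± 0.59 in TIM, a 7.61-fold lower level (adjusted p = 0.00044). The passenger arm of the same hairpin, miR-27a-5p, fell alongside. It had 146 to 196 CPM in AG, 7.80 to 46.3 CPM in TI and 12.4 to 64.6 CPM in TIM, again without overlap, with a log2 fold change of -3.11 ± 0.51 in TI (adjusted p = 6.7e-05) and -2.54 ± 0.50 in TIM (adjusted p = 0.00042).

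The mmu-miR-24-2-5p arm, which reports on the Mir24-2 hairpin, was lower by a like amount. The AG libraries had 774, 813 and 964 CPM. The TI libraries had 32.8 to 125 CPM (median 111), and the TIM libraries had 53.1 to 319 CPM (median 88.2). The groups of tumors and glands did not overlap. Its log2 fold change was -3.34 ± 0.58 in TI, a 10.1-fold lower level (adjusted p = 0.00012), and -2.84 ± 0.57 in TIM, a 7.14-fold lower level (adjusted p = 0.00048).

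The third product of cluster a, mmu-miR-23a-3p, was tightly grouped in AG at 937, 972 and 986 CPM. In TI it ranged from 103 over a median of 289 to 408 CPM, so that all 7 tumors were below AG. In TIM it ranged from 78.7 over a median of 183 to 1506 CPM. TIM library 2 alone, at 1506 CPM, exceeded AG, and the next TIM library had 407 CPM. The log2 fold change was -2.05 ± 0.70 in TI (limma, adjusted p = 0.020) and -2.17 ± 0.69 in TIM (adjusted p = 0.015). Both calls were lost when reads of miR-148a-3p were not counted in the library totals, with log2 fold changes of -1.52 (adjusted p = 0.086) in TI and -1.58 (adjusted p = 0.074) in TIM. The TI call was also lost without any of the 3 AG libraries, at adjusted p of 0.061, 0.056 and 0.052 without AG libraries 1, 2 and 3. The TIM call was also lost with edgeR (-1.51, adjusted p = 0.075) and DESeq2 (-1.54, adjusted p = 0.059) on the recovered reads, and without AG library 1 (-2.17, adjusted p = 0.054). The calls of miR-27a-3p, miR-27a-5p and miR-24-2-5p against AG, by contrast, held under every alternative scaling, filter, test and left-out library.

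The partner arm miR-23a-5p had 1 to 13 reads per library in AG and 0 to 3 in the tumors, too few to be tested. The log2 ratio of miR-23a-3p to it differed from AG by -1.78 in TI (exact permutation p = 0.0167, adjusted p = 0.0643) and by -1.94 in TIM (exact permutation p = 0.0606, adjusted p = 0.20), where 1 library was above AG. Both values rest on those reads and on the 1 CPM added to them. The antisense hairpins gave little signal as well. The rows mmu-miR-3074-1-3p and mmu-miR-3074-2-3p stayed below the filter, and mmu-miR-3074-5p, at 0.336 to 3.58 CPM over all libraries, did not pass the test in either tumor model.

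Of the products of cluster b, none passed the test against AG. The most abundant, mmu-miR-27b-3p, ranked between place 5 and place 15 of all miRNAs in every library. The AG libraries had 24638, 26789 and 28527 CPM. TI ranged from 13493 over a median of 20450 to 33847 CPM, and TIM from 12032 over a median of 20212 to 51721 CPM. AG lay within the range of both tumor groups. In TI, 6 of 7 libraries were below every AG library and 1 was above. In TIM, 6 of 8 were below and 2 above. The log2 fold change was -0.37 in TI (95% interval -1.13 to 0.40, adjusted p = 0.41) and -0.32 in TIM (-1.07 to 0.43, adjusted p = 0.47), and its sign depended on the scaling, since it was 0.16 and 0.28 under totals free of miR-148a-3p.

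For mmu-miR-23b-3p the AG libraries had 1044, 1199 and 1759 CPM. TI ranged from 1025 over a median of 1169 to 2599 CPM, and TIM from 819 over a median of 1150 to 4561 CPM, with TIM library 2 again the highest and the next at 1933 CPM. All groups overlapped. Its log2 fold change was 0.07 in TI (95% interval -0.86 to 0.99, adjusted p = 0.91) and 0.07 in TIM (-0.84 to 0.98, adjusted p = 0.91), and the sign in TI turned to -0.14 without the TMM factor. The 95% intervals of the paralog miR-23a-3p, -3.52 to -0.57 in TI and -3.62 to -0.72 in TIM, overlap these intervals.

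The least abundant member, mmu-miR-24-1-5p, had 44.8, 49.1 and 57.2 CPM in AG. TI ranged from 7.37 over a median of 16.1 to 47.5 CPM, and TIM from 6.31 over a median of 16.5 to 98.8 CPM. In each tumor group 6 libraries lay below AG, while TIM library 5 lay above it. The log2 fold change of -1.47 ± 0.69 in TI missed the threshold (adjusted p = 0.075), as did -1.13 ± 0.67 in TIM (adjusted p = 0.17). In TI it passed when only TI and AG were fitted (adjusted p = 0.032), without TI library 5 (0.037) and without TIM library 5 (0.046). The 5p arms of the other cluster b hairpins, miR-23b-5p with 0.726 to 3.17 CPM and miR-27b-5p with 16.7 to 58.0 CPM over all libraries, did not pass the test in TI (log2 fold change -0.17 and -0.39) or TIM (0.16 and 0.09).

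The product shared by the clusters, mmu-miR-24-3p, had 10869, 12108 and 12484 CPM in AG. In TI it ranged from 3494 over a median of 5385 to 9630 CPM, below AG in all 7 tumors. In TIM it ranged from 3361 over a median of 7404 to 19789 CPM, with 5 libraries below and 3 above AG. It fell in TI (log2 fold change -1.17 ± 0.48, adjusted p = 0.044), a call that was lost under totals free of miR-148a-3p (-0.64, adjusted p = 0.24), with no filter on low values (0.079) and in 10 of the 18 fits without 1 library, including each of the 3 without an AG library (0.084 to 0.12). In TIM the log2 fold change was -0.60 ± 0.47 (adjusted p = 0.30) and it became 0.00 under those totals.

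**Figure D2:**
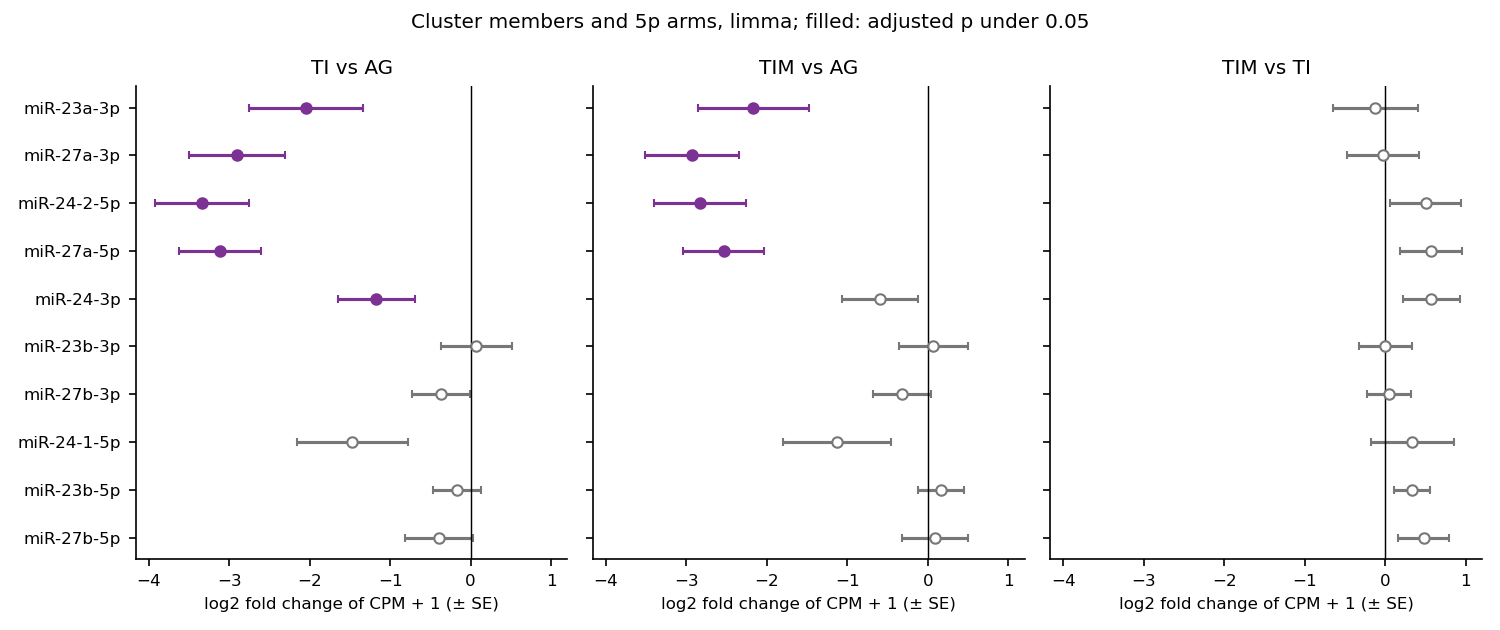
Log2 fold change of CPM + 1 with its SE for the members and the 5p arms that could be tested, in TI against AG, TIM against AG and TIM against TI, with filled points for an adjusted p under 0.05. The 4 products of cluster a lie left of 0 and filled in both comparisons with AG, and 0 points are filled in TIM against TI.

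The clusters were then compared within each library. A ratio of 2 products from the same library does not depend on the scaling of that library, apart from the 1 CPM added to each value. The ratio of miR-27a-3p to miR-27b-3p was 0.133, 0.179 and 0.214 in AG. It was 0.0106 to 0.0516 in TI with a median of 0.0346, and 0.0139 to 0.0627 in TIM with a median of 0.0302. In every tumor library miR-27a-3p was thus a smaller part of the miR-27 pool than in any gland. Its share of the miR-27 reads was 14.9% ± 2.97 (SD, n = 3) in AG, 3.13% ± 1.21 (n = 7) in TI and 3.10% ± 1.64 (n = 8) in TIM. On the log2 scale the ratio differed from AG by -2.54 in TI and by -2.61 in TIM. The 2-sided exact permutation test gave p = 0.0167 for TI and p = 0.0121 for TIM, the smallest values that these numbers of libraries allow. After adjustment over the 27 ratio tests both were 0.0643 and did not pass.

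The other paralog pairs showed the same order. The ratio of miR-23a-3p to miR-23b-3p was 0.553 to 0.898 in AG, 0.0811 to 0.315 in TI and 0.0767 to 0.330 in TIM, a log2 difference of -2.11 and -2.24. TIM library 2, which had the highest level of both miR-23 paralogs, had a ratio of 0.330, below all AG libraries, so its high miR-23a-3p level did not come with a gland-like ratio. The cluster a share of the miR-23 pool was 42.7% ± 6.24 (SD, n = 3) in AG, 15.8% ± 7.0 (n = 7) in TI and 14.5% ± 6.15 (n = 8) in TIM. The ratio of miR-24-2-5p to miR-24-1-5p was 15.5 to 17.8 in AG, 2.3 to 7.69 in TI and 3.19 to 7.80 in TIM, a log2 difference of -1.87 and -1.70. For both pairs every tumor library was below every AG library. The exact permutation p was 0.0167 in TI and 0.0121 in TIM, and the adjusted value of 0.0643 did not pass. With the p taken from the absolute difference in place of the doubled tail, the adjusted p was 0.0375 for all of these ratios except that of miR-23 in TI, which kept 0.0643.

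**Figure D3:**
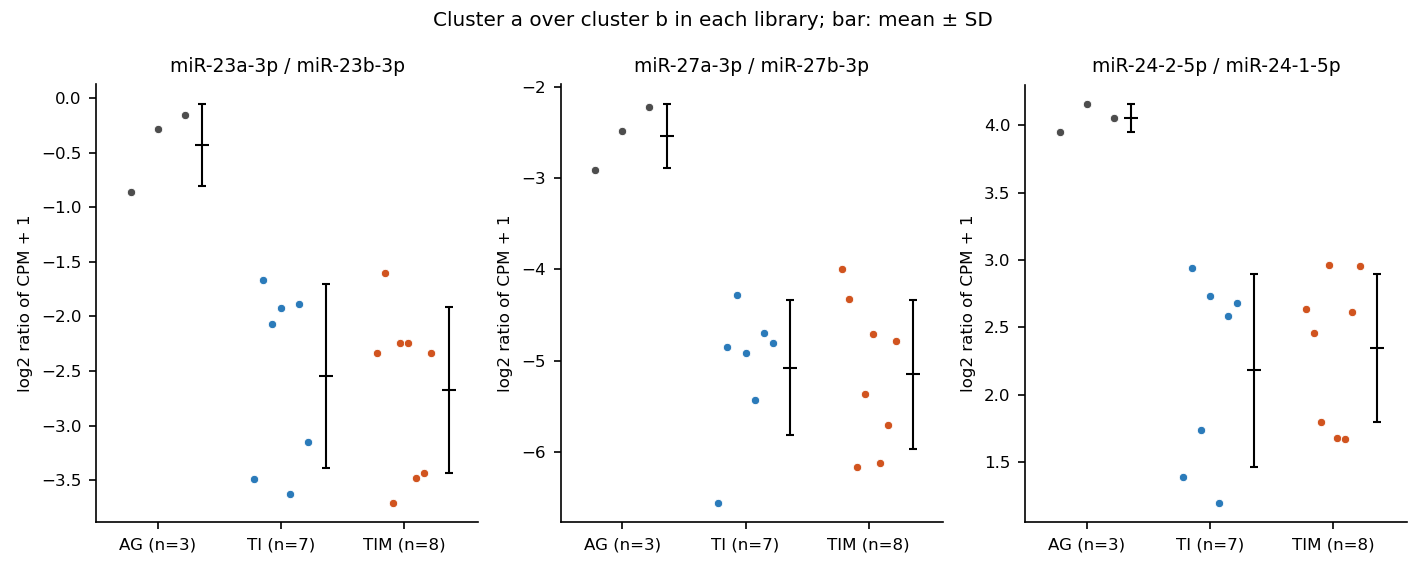
Log2 ratio of the cluster a to the cluster b product in each library (1 point each; CPM + 1), with the mean ± SD of AG (n = 3), TI (n = 7) and TIM (n = 8). In all 3 pairs the 15 tumor libraries lie below the 3 AG libraries.

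The balance of the arms within a hairpin was compared as well. The ratio of miR-27a-3p to miR-27a-5p was 19.3 to 34.3 in AG, 13.7 to 92.3 in TI and 12.7 to 46.6 in TIM, and the groups overlapped. Neither this ratio nor those of the miR-23b and miR-27b arms passed the test in TI or TIM (exact permutation, adjusted p from 0.61 to 0.87). Within cluster a, the ratio of miR-23a-3p to miR-27a-3p was 0.163 to 0.256 in AG, 0.194 to 0.693 in TI and 0.163 to 1.14 in TIM, with log2 differences of 0.86 and 0.76 that did not pass (exact permutation, adjusted p = 0.20 and 0.53). Within cluster b, the ratio of miR-23b-3p to miR-27b-3p did not pass either (log2 differences 0.44 and 0.39, adjusted p = 0.23 and 0.75).

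The tumor models were compared with each other in the same fit. In TIM against TI, 0 of the 7 members passed, where 3.44% of all tested miRNAs rose and 1.79% fell. The balance of that background depended on the scaling and the tool, with 65.8% of the calls higher in TIM here, 89.0% without the TMM factor, 48.1% with median ratio scaling, 45.5% with DESeq2 and 33.3% of only 3 calls with edgeR. With limma, 0 of the 7 also had an unadjusted p under 0.05, and edgeR and DESeq2 on the recovered reads called 0 of 7. Of the 5p arms, miR-27a-5p (log2 fold change 0.57, adjusted p = 0.39) and miR-27b-5p (0.48, adjusted p = 0.38) did not pass, but both did without the TMM factor (1.10, adjusted p = 0.044, and 1.02, adjusted p = 0.046). The log2 fold changes were -0.13 for miR-23a-3p (95% interval -1.23 to 0.98), -0.02 for miR-27a-3p (-0.96 to 0.92), 0.50 for miR-24-2-5p (-0.41 to 1.42) and 0.57 for miR-24-3p (-0.18 to 1.32). For the cluster b products they were 0.00 for miR-23b-3p (-0.69 to 0.69), 0.05 for miR-27b-3p (-0.52 to 0.62) and 0.34 for miR-24-1-5p (-0.74 to 1.42). With intervals that reach 1.42 on the log2 scale, these data do not show that the models had equal levels. The 3 paralog ratios differed by -0.13, -0.07 and 0.17 on the log2 scale (exact permutation, adjusted p = 0.87, 0.87 and 0.84).

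The 7 members had a wider span among libraries in TIM than in TI. The highest TIM library exceeded the lowest 19.1-fold for miR-23a-3p, 7.01-fold for miR-27a-3p and 15.7-fold for miR-24-1-5p, where the TI libraries spanned 3.95-fold, 4.24-fold and 6.45-fold. Without TIM library 2 the TIM span of miR-23a-3p was 5.18-fold, and without TIM library 5 those of miR-27a-3p and miR-24-1-5p were 5.46-fold and 8.59-fold. With the highest library of each group left out, the TI spans of these miRNAs were 3.49-fold, 3.27-fold and 4.98-fold, and all 7 members still had the wider span in TIM. Of the 3 tested 5p arms that are not members, 1 had the wider span in TIM, and 0 with the highest library of each group left out. The spans in TI and TIM were 5.93-fold and 5.22-fold for miR-27a-5p and 3.48-fold and 2.91-fold for miR-27b-5p. For miR-23b-5p they were 3.53-fold and 3.79-fold. The group sizes differ, and these spans were not tested. TIM libraries 5, 2 and 1, in this order, had the 3 highest levels of miR-27a-3p, miR-24-2-5p, miR-24-3p and miR-24-1-5p. For miR-27a-3p they had 1972, 1536 and 1257 CPM, and the next library had 492 CPM.

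Across all 18 libraries, the products of Mir27a and Mir24-2 kept the closest proportion. Likeness was measured as the SD over libraries of the log2 ratio of 2 miRNAs, so that a low value means a steady ratio, and it is a description without a test, in which the group difference and the library scaling are shared. Of 399 candidates with a mean of at least 10 CPM, miR-24-2-5p was the closest to miR-27a-3p, with an SD of 0.36 beside a median of 1.69 over the candidates. MiR-23a-3p, the neighbour on the other side, had an SD of 0.82 and place 25, and the paralog miR-27b-3p an SD of 1.21 and place 99. The 3 miRNAs outside the clusters most like miR-27a-3p were miR-22-5p (SD 0.39), miR-22-3p (0.52) and miR-455-3p (0.56), which themselves fell in TI (log2 fold change -2.97, -3.36 and -3.44) and TIM (-3.0, -3.30 and -3.05). For miR-23a-3p they were miR-26b-5p (0.52), miR-1843b-5p (0.67) and miR-3068-5p (0.71), and miR-27a-3p held place 11.

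**Figure D4:**
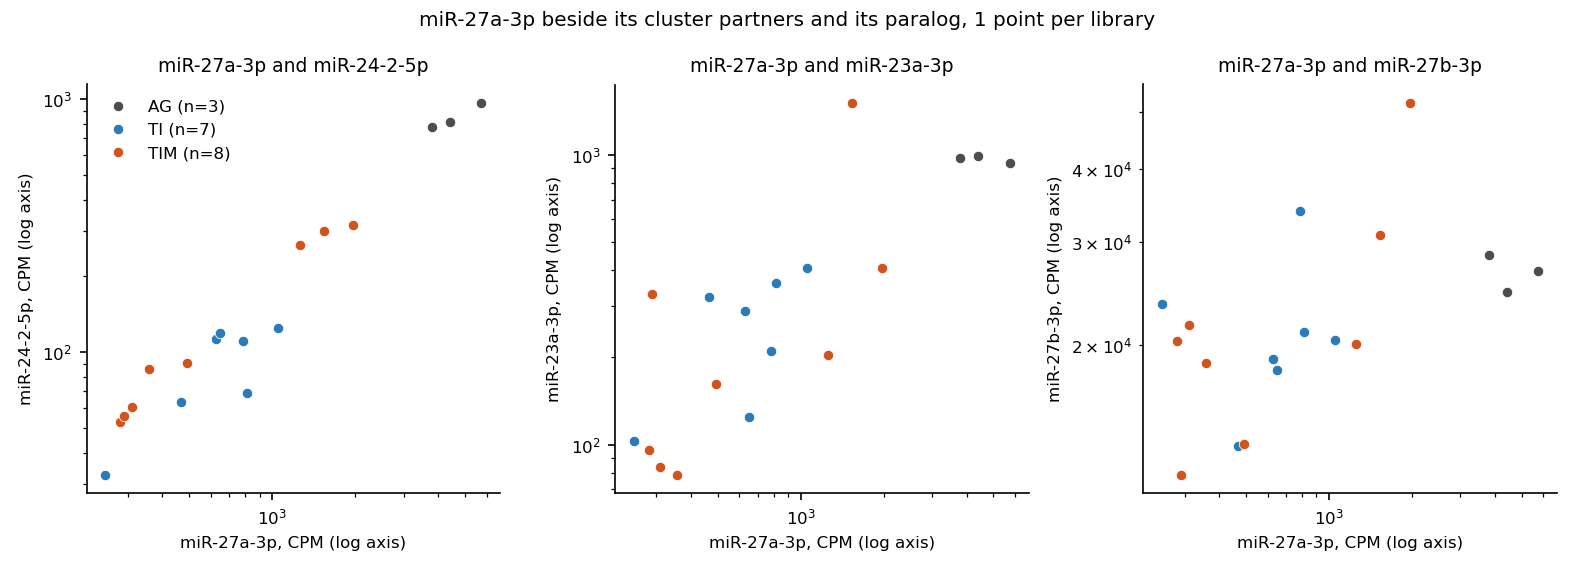
Level of miR-27a-3p (x axis, CPM, log axis) in each library beside miR-24-2-5p, miR-23a-3p and miR-27b-3p (y axes, CPM, log axes), with AG in grey, TI in blue and TIM in orange. The points of miR-24-2-5p lie along a narrow band (SD of the log2 ratio 0.36), those of miR-23a-3p scatter more (0.82) and those of miR-27b-3p most (1.21).

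For cluster b, miR-23b-3p and miR-27b-3p were close to each other, and the third product was further off. MiR-24-1-5p held place 114 of 399 for miR-23b-3p (SD 0.96) and place 65 for miR-27b-3p (0.73). MiR-27b-3p held place 3 of 399 for miR-23b-3p (SD 0.53), after miR-1839-3p (0.52) and miR-1839-5p (0.53), and miR-671-5p (0.54) followed. For miR-27b-3p the closest outside the clusters were miR-872-3p (0.42), miR-125a-3p (0.46) and miR-148b-5p (0.47), with miR-24-3p at place 5 (0.49) and miR-23b-3p at place 11 (0.53). The shared miR-24-3p was closest to miR-1981-5p (0.35), miR-185-5p (0.40) and miR-328-3p (0.41), and next to the cluster b products miR-24-1-5p (place 4, 0.48) and miR-27b-3p (place 5, 0.49). The cluster a product miR-24-2-5p held place 107 (0.98). In its variation over libraries miR-24-3p thus kept a steadier ratio to the cluster b than to the cluster a products.

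Some markers of other cell types also fell, where 29.3% of all tested miRNAs fell in TI and 25.9% in TIM. The endothelial miRNAs miR-126a-3p and miR-126a-5p fell in both models (2 of 2), and their summed level was 38529 to 46092 CPM in AG, 1704 to 6736 CPM in TI and 2428 to 8943 CPM in TIM. Within TIM, libraries 5, 2 and 1 had the 3 highest sums, at 8943, 7701 and 7095 CPM, the same libraries as for miR-27a-3p. Within TI the orders differed, since library 6 had the lowest sum, at 1704 CPM, and the second highest miR-27a-3p level, at 812 CPM, while the highest sums were in libraries 5, 7 and 4 and the highest miR-27a-3p levels in libraries 3, 6 and 5. MiR-126a-3p held place 12 of 399 in likeness to miR-27a-3p (SD 0.69), place 76 for miR-23a-3p (1.15) and place 244 for miR-27b-3p (1.31). Of the 5 leukocyte miRNAs 3 fell in TI and 4 in TIM, with sums of 427 to 620, 53.5 to 348 and 69.5 to 215 CPM in AG, TI and TIM. Of the 4 stromal miRNAs 4 fell in TI and 2 in TIM, with sums of 2030 to 3202, 346 to 1605 and 234 to 1280 CPM. Of the smooth muscle pair 1 fell in TI and 2 in TIM, with sums of 121198 to 209015, 15784 to 171131 and 16015 to 101007 CPM. The part of these cell types in the lower cluster a levels was not tested, and in whole tissue fewer cells of a type and less RNA per cell cannot be told apart.

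Of the other lists, 0 of 3 erythroid and 0 of 3 muscle miRNAs passed the test, and TIM library 1 stood apart with a muscle sum of 22972 CPM where the other libraries had at most 344 CPM. Leaving that library out kept miR-27a-3p, miR-24-2-5p and miR-23a-3p called against AG. Of the neuronal and neuroendocrine miRNAs 3 of 5 rose in both models, where 26.4% of all tested miRNAs rose in TI and 25.5% in TIM. The 3 were miR-124-3p, miR-9-5p and miR-9-3p, while miR-7a-5p and miR-375-3p did not pass. The log2 fold changes were -0.09 in TI and 0.39 in TIM for miR-7a-5p, and -1.75 and -2.27 for miR-375-3p. The sums of the list overlapped, at 45276 to 108209 CPM in AG, 32455 to 250127 CPM in TI and 43452 to 247618 CPM in TIM. The list as a whole thus does not mark the tumors, and their name as neuroblastomas rests on the label. MiR-7a-5p and miR-375-3p, known from endocrine cells, had mean levels of 60999 and 22018 CPM in AG.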

How the data were processed

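Small RNA libraries of 3 AG, 7 TI and 8 TIM samples were analysed. The deposited signal values are CPM scaled by the authors with TMM factors. The authors' own log2 fold changes and p-values, deposited in the same table, were not used. The submitters' processing notes name cutadapt 2.8, Bowtie2 2.3.5.1, featureCounts 2.0.0, edgeR 3.40 and mm10. Strand setting and the treatment of reads with several matches are not given in the sources used here. Because low values are whole multiples of 1 read, reads were recovered (100% of values whole within 0.001) and gave the library totals. The test across miRNAs was limma 3.58.1 (trend, all 18 libraries in 1 model) on log2(CPM + 1), for miRNAs that reached 1 CPM in 3 or more libraries, with Benjamini-Hochberg adjustment at 0.05. A fold change on this scale understates that of rare miRNAs. edgeR 4.0.16 and DESeq2 1.42.0 on recovered reads were alternatives. Ratios of CPM + 1 were compared by the exact permutation test, 2-sided by doubling the smaller tail. 0 pairs of libraries were identical. Levels of different miRNAs are not molecule numbers, since ligation differs between sequences. The scripts were tested on simulated data.

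The members and marker lists were chosen with earlier results of these data known. Named were the 7 members, their 5p arms, the miR-3074 rows and, for each 3p member, the 3 miRNAs with the lowest SD of the log2 ratio. The table holds no replicate numbers that match the labels.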

Additional observations from a re-analysis of the deposited data

Results flagged for a closer look

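In TIM, library 2 was flagged by Dixon's rule on CPM for both miR-23 paralogs. For mmu-miR-23a-3p it had 1506 CPM, and its gap to the next library took 0.77 of the range of the group. For mmu-miR-23b-3p it had 4561 CPM, with a gap of 0.70 of the range. Dixon's 95% critical value for 8 samples is 0.526. In all 38 groups of values were examined in this way, of which about 1.9 would pass by chance, and 2 passed. The number of flags is thus near that expected by chance. Levels were examined as CPM, not on the log2 scale of the other tests. In the same library miR-27a-3p had 1536 CPM and was second in TIM. Without it, the log2 fold change of miR-23a-3p in TIM against AG was larger in size, at -2.57, and the call remained.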

How the results depend on the processing

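Alternatives were another pseudocount (0.1 or 5), CPM without the TMM factor, median ratio scaling, totals without miR-148a-3p, no filter, at least 10 CPM, only the 2 groups compared, edgeR, DESeq2 and each library left out. The calls of miR-27a-3p, miR-27a-5p and miR-24-2-5p against AG held under all of them. That of miR-23a-3p was lost in TIM under 3 of 10 alternatives other than a left-out library (totals without miR-148a-3p, edgeR, DESeq2) and in TI under 1. Leaving miR-148a-3p out of the totals moved the median of all tested miRNAs to 0.31 in TI (main value -0.01) and to 0.53 in TIM (main value 0.18), and 2 members were then called in TI against AG. Without 1 library, 2 to 5 members were called in TI against AG. The number of miRNAs called in TIM against AG was 373 and 227 to 384 without 1 library (227 without AG library 1). In TIM against TI it was 38, and 21 with pseudocount 5, 155 without the TMM factor, 17 at 10 CPM, 24 with only the 2 groups, 3 with edgeR, 123 with DESeq2 and 24 to 68 without 1 library (24 without TI library 1, 2 or 6, 62 without TI library 4, 68 without TI library 7 and 25 without TIM library 6), while 0 of 7 members were called in each of these. Of the 5p arms, miR-27a-5p and miR-27b-5p passed in TIM against TI without the TMM factor only (adjusted p = 0.044 and 0.046). The share of calls that were higher was 47.4% in TI, 49.6% in TIM and 65.8% in TIM against TI. It became 59.7%, 66.4% and 69.1% with miR-148a-3p left out, and 42.7%, 59.4% and 89.0% without the TMM factor. In TIM against TI the higher calls were the minority with median ratio scaling (48.1%), DESeq2 (45.5%) and edgeR (33.3%). The causes were not tested.

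The paralog differences kept their sign against AG (miR-23 -1.79 to -2.33 in TI and -2.05 to -2.45 in TIM, miR-27 -2.29 to -2.72 and -2.45 to -2.80, miR-24 5p -1.47 to -2.01 and -1.51 to -1.83). In the main exact permutation test none of them passed (adjusted p = 0.0643). With the p from the absolute difference, -2.24 (miR-23, TIM), -2.54 and -2.61 (miR-27) and -1.87 and -1.70 (miR-24 5p) passed at an adjusted p of 0.0375. Leaving out an AG library raises the smallest p that the test allows.

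Values that turned in sign did not pass the test before or after. In TI against AG, miR-23b-3p and miR-3074-5p turned to -0.14 and -0.074 without the TMM factor, and miR-27b-3p, miR-23b-5p and miR-27b-5p to 0.16, 0.12 and 0.11 with miR-148a-3p left out. In TIM against AG, miR-27b-3p turned to 0.027 without the TMM factor, and with miR-148a-3p left out miR-27b-3p turned to 0.28 and miR-3074-5p to 0.080. In TIM against TI, miR-23a-3p turned to 0.43 without the TMM factor, 0.36 with edgeR and 0.30 with DESeq2, and miR-27a-3p to 0.53, 0.21 and 0.12, and to 0.046 with miR-148a-3p left out. Median ratio scaling gave -0.062 for miR-23b-3p and -0.013 for miR-27b-3p. The difference of medians gave -0.048 for the miR-24 5p ratio in TIM against TI, and -0.19 and -0.071 for the arm ratios of miR-27a and miR-27b in TI against AG, which were -0.054 and -0.025 with pseudocount 5. The arm ratio of miR-23b in TIM against AG was 0.00084 with it. Without 1 library, the ranges that crossed 0 were, in TI against AG, -0.091 to 0.29 (miR-23b-3p), -0.017 to 0.19 (miR-3074-5p), -0.054 to 0.40 (miR-27a arms) and -0.19 to 0.22 (miR-27b arms). In TIM against AG they were -0.18 to 0.29 (miR-23b-3p), -0.059 to 0.29 (miR-23b-5p), -0.064 to 0.35 (miR-27b-5p) and -0.34 to 0.0067 (miR-23b arms). In TIM against TI they were -0.53 to 0.078 (miR-23a-3p), -0.27 to 0.13 (miR-27a-3p), -0.25 to 0.16 (miR-23b-3p), -0.13 to 0.17 (miR-27b-3p), -0.31 to 0.021 and -0.32 to 0.074 (miR-23 and miR-27 paralog ratios), -0.56 to 0.039 (miR-23a arms), -0.34 to 0.058 (miR-23a-3p to miR-27a-3p) and -0.22 to 0.062 (miR-23b-3p to miR-27b-3p). No paired analysis was possible because no column could be matched to a numbered replicate of the labels. With 11641696 to 23435621 reads per library, miR-23a-5p and the miR-3074 3p rows were too low to be tested. MiR-23b-5p, with 8 to 71 reads per library, and miR-3074-5p, with 10 to 57, were tested but low. The 1 CPM added to each value weighs on their fold changes and on the arm ratio of miR-23b.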
